A study of Saccharomyces cerevisiae with 8 samples.

Results

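Small nucleolar RNA (snoRNA) genes of budding yeast were examined for occupancy by RNA polymerase II, before and during repair of a chromosome break. The genes were chosen by annotation alone: those annotated as snoRNA in the R64 assembly on chromosomes II, V and XI to XVI, which gave 53 of the 76 nuclear snoRNA genes. The other chromosomes did not pass a check of the deposited positions against R64. All samples, labelled WT, were of strain AM1003, which carries the HO endonuclease under a galactose promoter (GAL::HO). Cells grew overnight in raffinose medium. The 6 h group received 2% galactose for 6 h, which induces the double-strand break, and the 0 h group was collected untreated. Rpb1 (the subunit that carries the catalytic centre of RNA polymerase II) was immunoprecipitated from chromatin. This gave 2 libraries at 6 h and 2 at 0 h, out of 8 samples. The 4 inputs had no values analysed here. The study asked where the polymerase sits on genes of the template for break-induced replication, a repair pathway that copies a long stretch of a chromosome. Both groups carry GAL::HO, and galactose, time in culture and the break came together, so their effects cannot be told apart.

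SnoRNAs guide the modification and cleavage of ribosomal RNA. Those of the box C/D class direct methylation of ribose, and those of the box H/ACA class direct conversion of uridine to pseudouridine. A few, including the U3 RNA from SNR17A and SNR17B and the RNA from SNR30, are instead needed to cut the precursor of the small-subunit ribosomal RNA. Most yeast snoRNAs are made by RNA polymerase II from short genes of their own, whose transcripts end through the Nrd1, Nab3 and Sen1 proteins. Others are cut from a shared transcript of several snoRNAs or from the intron of a protein-coding host gene. SNR52 is the exception, being made by RNA polymerase III.

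The values are peak summits, each the highest point of a peak called in 1 library, with the authors' score for that peak. In replicates 1 and 2 there were 1288 and 1074 summits at 6 h, against 1186 and 1194 at 0 h. A score is the −log10 of the peak's p-value, or possibly q-value. It depends on read depth and serves here only to rank summits of 1 library. Read depth is unknown. Since the chromosomes had been picked partly by snoRNA genes, the match to R64 was repeated with ribosomal protein, translation factor and glycolytic genes alone. On all 8 chromosomes the best shift was then at most 200 bp, with 71.2% to 98.1% of these genes within 250 bp of a summit. On V, XI and XIV only 8 or 9 such genes were available, under the minimum of 10, so these 3 chromosomes did not pass the repeated check. Positions relative to a gene therefore carry an uncertainty of up to about 200 bp, while distances between summits of different libraries do not. As a check of the galactose labels, GAL1, GAL10 and GAL2 had summits within 250 bp at 6 h in both replicates and at 0 h in none. Whether replicates came from separate cultures is not stated, so their spread may be technical.

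Nearly all snoRNA genes had a summit within 1000 bp at both times, and fewer had one close by at 6 h. Within 250 bp, a summit was found at 35 and 32 of the 53 genes in the 6 h libraries, and at 41 and 41 in the 0 h libraries. These are shares of 66.0% and 60.4% at 6 h and of 77.4% in both 0 h libraries. The means of 63.2% ± 4.0 at 6 h and 77.4% ± 0 at 0 h (SD, n = 2 each) differ by -14.2 percentage points, which is more than the spread between replicates. With 1 unit per cluster of snoRNA genes, which share summits, the difference was -8.54 points. An exact permutation test, two-sided, gave p = 0.33, the smallest value that 2 libraries against 2 can give. In this window, protein-coding and tRNA genes differed in the other direction. The means for protein-coding genes were 21.8% ± 2.04 at 6 h and 19.6% ± 0.206 at 0 h (SD, n = 2 each, 3432 genes). Their difference of 2.23 points was smaller than the gap between the 6 h replicates, at 23.3% and 20.4%. Among 142 tRNA genes, which are transcribed by RNA polymerase III, the means were 9.51% ± 0.498 at 6 h and 5.28% ± 1.49 at 0 h. The protein-coding genes are longer, with a median of 1218 bp against 107 bp for the snoRNA genes and 73 bp for the tRNA genes, so the same window covers more sequence at them.

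The difference between the times depended on how wide the window was. The summit lay inside the annotated gene at only 4 and 7 snoRNA genes in the 6 h libraries, against 7 and 10 in the 0 h libraries, and here the time points overlapped (exact permutation p = 0.667). By this rule protein-coding genes were also lower at 6 h, at 11.1% and 8.95% in the 6 h libraries, against 11.6% and 12.2% in the 0 h libraries. The summit was inside the gene in all 4 libraries at 2 snoRNA genes (3.77%, against 3.23% of protein-coding genes). With 500 bp on each side, 44 and 41 genes had a summit in the 6 h libraries, against 46 and 49 in the 0 h libraries. With 1000 bp, 48 and 47 genes had one in the 6 h libraries, against 50 and 52 in the 0 h libraries, so the difference of the mean shares went down to -6.60 percentage points. In all 4 libraries 46 genes had one within 1000 bp (86.8%, against 20.4% of protein-coding genes), and 52 of the 53 had one in at least 1 library.

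**Figure D1:**
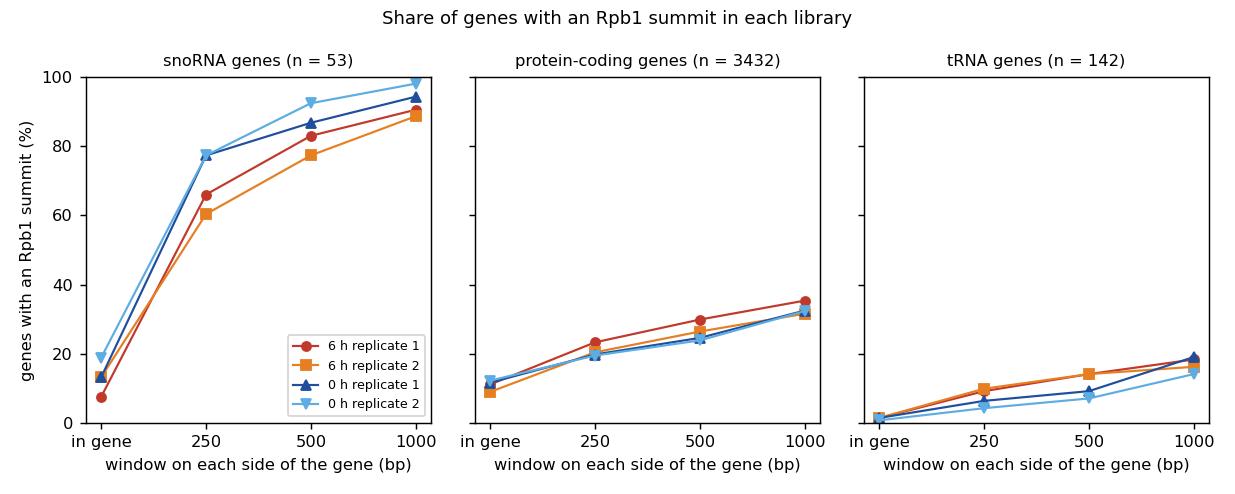
Percentage of genes (vertical axis) with at least 1 Rpb1 summit inside the gene or within 250, 500 or 1000 bp (horizontal axis), for snoRNA, protein-coding and tRNA genes, with 1 line per library. At 250 bp the 6 h libraries lie at 66.0% and 60.4% of snoRNA genes and both 0 h libraries at 77.4%.

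The gene without a summit within 1000 bp was SNR52, the RNA polymerase III gene. Its nearest summits lay 3392 and 3364 bp away in the 6 h libraries and 1550 and 2260 bp away in the 0 h libraries, all upstream of it.

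Summits near snoRNA genes ranked high within their libraries. Those within 250 bp of a snoRNA gene were 34 of 762 and 32 of 658 summits on these chromosomes at 6 h, and 35 of 711 and 37 of 706 at 0 h. Their median score percentile was 85.4 and 78.7 at 6 h, against 88.2 and 85.8 at 0 h. That of all other summits on these chromosomes was 48.4 and 48.2 at 6 h, against 48.3 and 49.0 at 0 h. Of the 20 best-scoring summits, 3 and 2 at 6 h and 4 and 4 at 0 h were near a snoRNA gene. A match by distance does not assign a summit to the snoRNA gene rather than to its neighbour. At 6 h, 7 and 7 of the nearest summits within 250 bp lay inside a protein-coding gene, and at 0 h 5 and 6 did, besides 2 in 0 h replicate 2 that lay in a snoRNA gene and its host at once.

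Except in 0 h replicate 2, most of these nearest summits lay past the end of the snoRNA gene, in the direction of transcription. Of the genes with a summit within 250 bp, 24 of 35 and 17 of 32 had it past the gene's end at 6 h, and 25 of 41 and 20 of 41 had it there at 0 h. The median position from the gene's midpoint was 151 and 95.5 bp downstream at 6 h and 129.5 and 86 bp downstream at 0 h. It was positive on both strands in every library. Genes on the Watson strand had medians of 118.5 and 35.3 bp at 6 h and 116 and 33.5 bp at 0 h, and genes on the Crick strand 154 and 202 bp at 6 h and 146 and 155 bp at 0 h. The strands differed most in the replicate 2 libraries. There only 7 of 18 Watson-strand genes at 6 h and 8 of 21 at 0 h had the summit past the end. The part that an offset of the coordinates has in these positions was not tested.

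A gene was called lost where the 0 h libraries both had a summit within 250 bp and the 6 h libraries both lacked one, and gained in the opposite case. By this rule 5 snoRNA genes were lost (9.43%), against 3.06% of protein-coding genes, and 2 were gained (3.77%), against 4.31%. Neighbouring snoRNA genes share summits, and with 1 unit per cluster 1 of 41 units was lost and 0 gained. A further 27 had a summit in all 4 libraries (50.9%), against 9.88% of protein-coding genes, 3 had none in any library, and 16 were mixed. Since only a gene with summits at 0 h can be lost, these are 5 of the 36 snoRNA genes that had them in both replicates (13.9%), against 105 of 533 protein-coding genes (19.7%). The gained genes are 2 of the 7 without a summit at 0 h (28.6%), against 148 of 2619 (5.65%). Leaving out a library makes the rule easier to meet, and gave 8 lost genes without 6 h replicate 1, 6 without 6 h replicate 2, and 9 without either 0 h replicate. Gained genes numbered 2 or 3 in each case. The shares of 3.06% and 4.31% come from the full rule, so they are no background for these counts. With positions moved by each chromosome's best landmark shift, 1 gene was gained. These calls have no test of their own.

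The lost genes were SNR77, SNR76, SNR70, SNR41 and SNR24, all of box C/D, and the gained genes were SNR73 and SNR72. None of them stood by itself. SNR77, SNR76, SNR73 and SNR72 belong to 1 cluster, SNR70 and SNR41 to another, and SNR24 lies in a host gene. At SNR76, SNR70, SNR41 and SNR24 a summit lay within 1000 bp in both 6 h libraries, so these 4 of the 5 had a summit elsewhere nearby. SNR70 and SNR41 shared theirs. Without 0 h replicate 2 there were 7 such genes, and with the search limited to 500 bp there was 1. Whether these are the 0 h summits displaced was not tested, and the matching share of lost protein-coding genes is not given here. At SNR77 none lay within 1000 bp at 6 h, but the summit at the other end of its own cluster lay 1050 and 1063 bp away. With the window at 500 bp, 5 genes were lost (9.43%, against 2.65% of protein-coding genes), 2 were gained (3.77%, against 4.98%) and 37 had a summit in all 4 libraries (69.8%, against 14.8%). With the window at 1000 bp, 3 genes were lost (5.66%, against 3.7% of protein-coding genes), namely SNR78, SNR77 and SNR191, and 0 were gained, against 4.69%. The inside-gene rule gave 2 lost, SNR17A and SNR70 (3.77%, against 3.12%), and 0 gained, against 2.19%.

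The 53 genes were therefore read in 3 kinds, by their surroundings. Clusters, in which neighbouring snoRNA genes lie under 500 bp apart, held 17 genes in 5 clusters. A further 7 overlapped a protein-coding gene on the same strand, and 29 stood singly. Within 250 bp, the single genes had summits at 25 and 23 of 29 at 6 h and 27 and 26 at 0 h. Clustered genes had them at 7 and 6 of 17 at 6 h and 11 and 10 at 0 h, and the overlapping genes at 3 and 3 of 7 at 6 h and 3 and 5 at 0 h. Among single genes 0 were lost and 0 gained in each of the 4 windows. Among protein-coding genes at 250 bp, 3.06% were lost and 4.31% gained. Of those with summits in both 0 h libraries, 19.7% were lost. Most single genes could have been lost, since 27 and 26 of the 29 had a summit within 250 bp at 0 h. At 22 of the 29 all 4 libraries had one. The 3 kinds were set after the lost and gained genes were known. The counts of 0 at single genes therefore follow in part from the grouping, and they were not tested against these shares. With 500 bp added, 27 of the 29 had a summit in all 4 libraries. The exceptions were SNR52, with none, and SNR50, a box C/D gene whose low-scoring summits (3.71 in 6 h replicate 1, 5.84 and 6.66 at 0 h) had no partner in 6 h replicate 2.

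**Figure D2:**
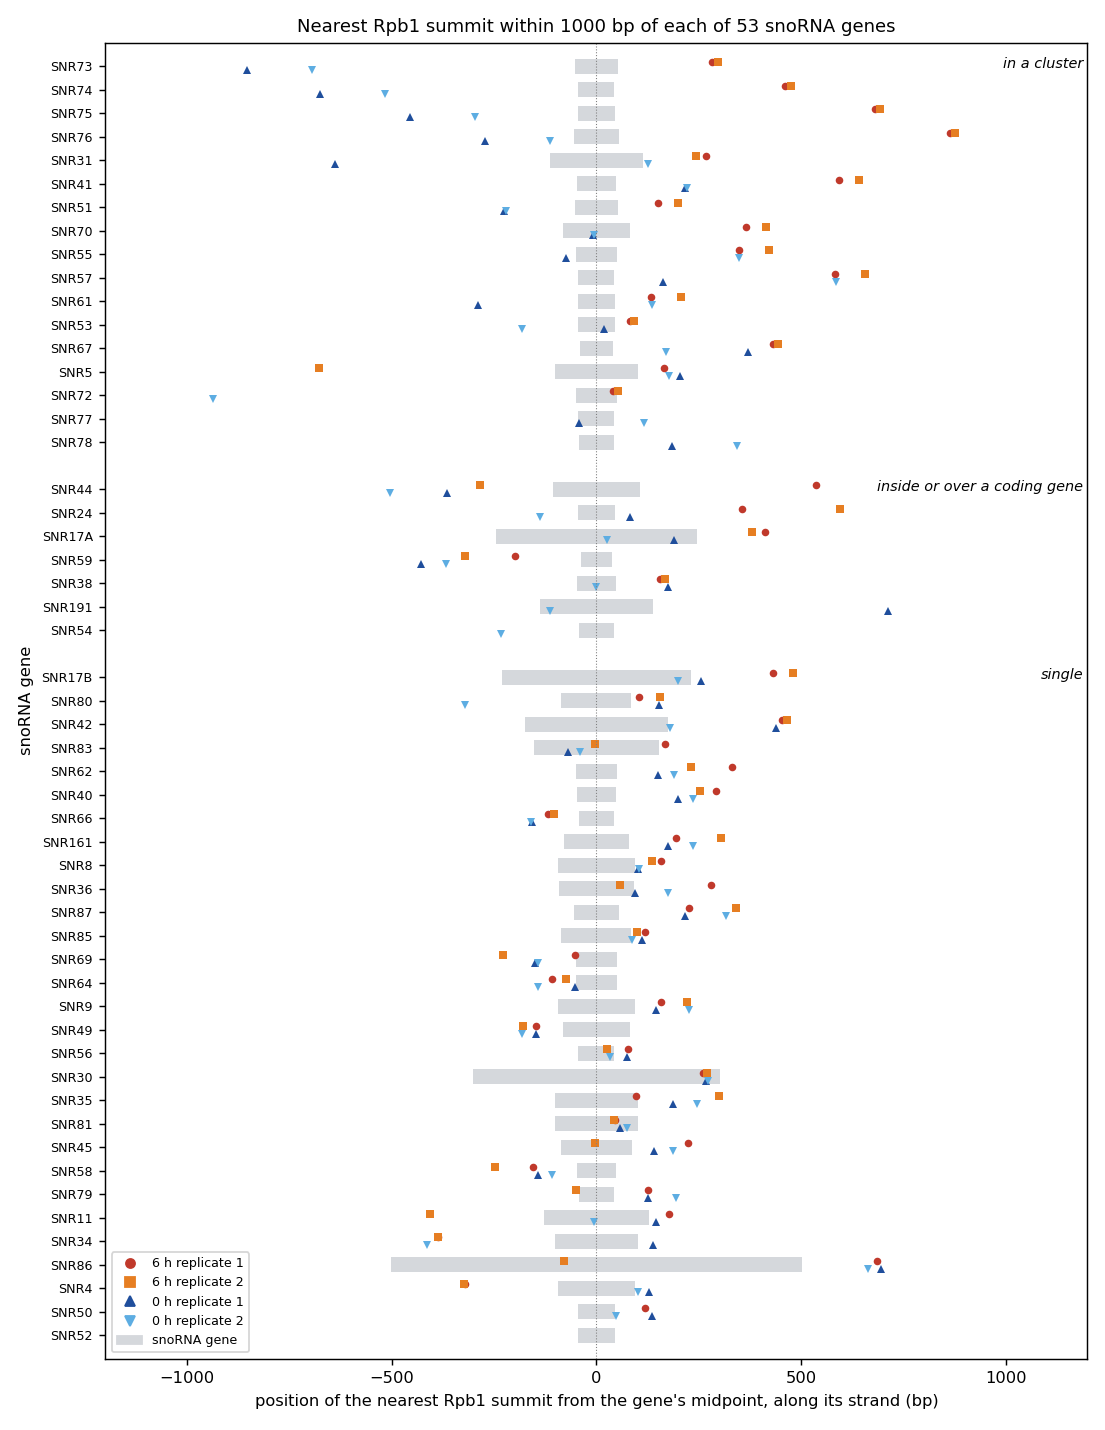
Position of the nearest Rpb1 summit within 1000 bp of each snoRNA gene, in bp from the gene's midpoint along its strand, with 1 row per gene, 6 h symbols above 0 h symbols, and grey bars for the genes. Rows are grouped by kind and ordered by the difference between 6 h and 0 h, and genes without a summit in all 4 libraries come last in each group. At SNR30 the 4 symbols lie within 14 bp, while at SNR73 to SNR76 the 6 h and 0 h symbols stand 1064 bp apart.

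Among single genes, the gene with the best mean rank was SNR30. Its summits had scores of 72.8 and 124 at 6 h, against 92.6 and 110 at 0 h, and none ranked below a percentile of 98.2 in its library. They lay inside the gene in all 4 libraries, 259.5 and 270.5 bp downstream of its midpoint at 6 h and 266.5 and 273.5 bp at 0 h. The time points overlap, and all 4 summits fall within 14 bp. SNR81, a box H/ACA gene whose RNA guides pseudouridylation in ribosomal RNA and in the U2 spliceosomal RNA, was the other gene with a summit inside it throughout. Its summits lay 46 and 44 bp downstream of the midpoint at 6 h and 58 and 75 bp at 0 h, so those at 6 h were further upstream, without overlap.

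The 2 genes for U3, an abundant snoRNA, both had summits further downstream at 6 h. At SNR17A, summits lay 412.5 and 380.5 bp downstream of the midpoint at 6 h, which is 168 and 136 bp past the gene's end, and 188.5 and 25.5 bp downstream at 0 h, inside the gene. At SNR17B, they lay 431.5 and 479.5 bp downstream at 6 h, and 255.5 and 199.5 bp at 0 h. In both genes the 2 groups did not overlap, and the differences of the means were 289.5 bp at SNR17A and 228 bp at SNR17B. Replicates at the same genes differed by 32 and 48 bp at 6 h and by 163 and 56 bp at 0 h. The surroundings differ. The 6 h summits past SNR17B lay inside POC4, a convergent protein-coding gene 129 bp from its end, and those past SNR17A lay between genes. SNR17A also overlaps IRC13, an open reading frame on the same strand, whose only summit within 250 bp was that of 0 h replicate 2.

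The other best-ranked genes with summits in all 4 libraries were SNR56, SNR4, SNR40 and, from a cluster, SNR61. SNR56, a box C/D gene, had summits 76.5 and 26.5 bp downstream of its midpoint at 6 h and 75.5 and 33.5 bp at 0 h, so the groups overlap. SNR40, another box C/D gene, had them 291 and 253 bp downstream at 6 h and 200 and 237 bp at 0 h, without overlap. SNR8, a box H/ACA gene, likewise had summits at 157.5 and 135.5 bp at 6 h and 102.5 and 104.5 bp at 0 h. The summits of SNR66 lay upstream of the gene in every library, at -117.5 and -104.5 bp from the midpoint at 6 h and at -158.5 and -159.5 bp at 0 h.

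Over the single genes these differences were small. All 4 libraries had a summit within 1000 bp at 27 of the 29, and the difference between the mean 6 h and the mean 0 h position had a median of 5 bp, with quartiles of -38.3 and 45.5 bp. It was within 100 bp in 17 of the 27. The 2 summits at 6 h were both further downstream than the 2 at 0 h in 7 genes (25.9%) and both further upstream in 3 (11.1%). Those 3 were SNR4, SNR58 and SNR81. Among the 701 protein-coding genes followed in the same way, the median was 76 bp, both 6 h summits lay downstream in 39.4% and upstream in 16.1%, and 31.4% stayed within 100 bp. The protein-coding genes leave more room for a summit to lie inside them, and this comparison was not tested. Replicates of single genes differed, without regard to sign, by a median of 52 bp at 6 h and 42 bp at 0 h.

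The clusters are described as 1 site each, since their genes share summits. The clearest difference was at 1 of the 5. The box C/D cluster SNR78, SNR77, SNR76, SNR75, SNR74, SNR73 and SNR72 on chromosome XIII spans 1374 bp and is transcribed in that order. Each library had a single summit on it. At 6 h the summits lay 1365 and 1378 bp from the start of SNR78, at the end of SNR72, the last gene, and at 0 h they lay 228 and 387 bp from it, at the start of SNR77 and between SNR77 and SNR76. In the coordinates of the lists, which name no build, these are positions 298643 and 298656 at 6 h, and 297506 and 297665 at 0 h. Their scores were 73.6 and 81.0 at 6 h, against 87.5 and 87.7 at 0 h, with percentiles of 95.3 or more in each library. The mean position differed by 1064 bp, against 13 bp between the 6 h replicates and 159 bp between the 0 h replicates. The calls of this cluster (2 lost, 2 gained, and none within 250 bp at SNR75 and SNR74 in its middle) therefore describe 1 difference in position.

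In the other 3 clusters transcribed from 1 strand, the mean summit position was also further downstream at 6 h, by 167.5 to 398 bp. In the cluster of SNR41, SNR70 and SNR51 on chromosome XVI, summits lay 640 and 688 bp from the start of SNR41 at 6 h, past the last gene, and 264 and 268 bp from it at 0 h, inside SNR70. In the cluster of SNR67 and SNR53 on chromosome V, they lay 473 and 483 bp from the start of SNR67 at 6 h, past SNR53, and 410 and 211 bp from it at 0 h. In both clusters the time points did not overlap. In the cluster of SNR57, SNR55 and SNR61 on chromosome XII, they lay at 627 and 699 bp at 6 h and at 205 and 628 bp at 0 h. There the groups overlapped by 1 bp, and the 0 h replicates differed by 423 bp. In all 4 clusters both 6 h summits were within 161 bp of the end of the last gene.

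**Figure D3:**
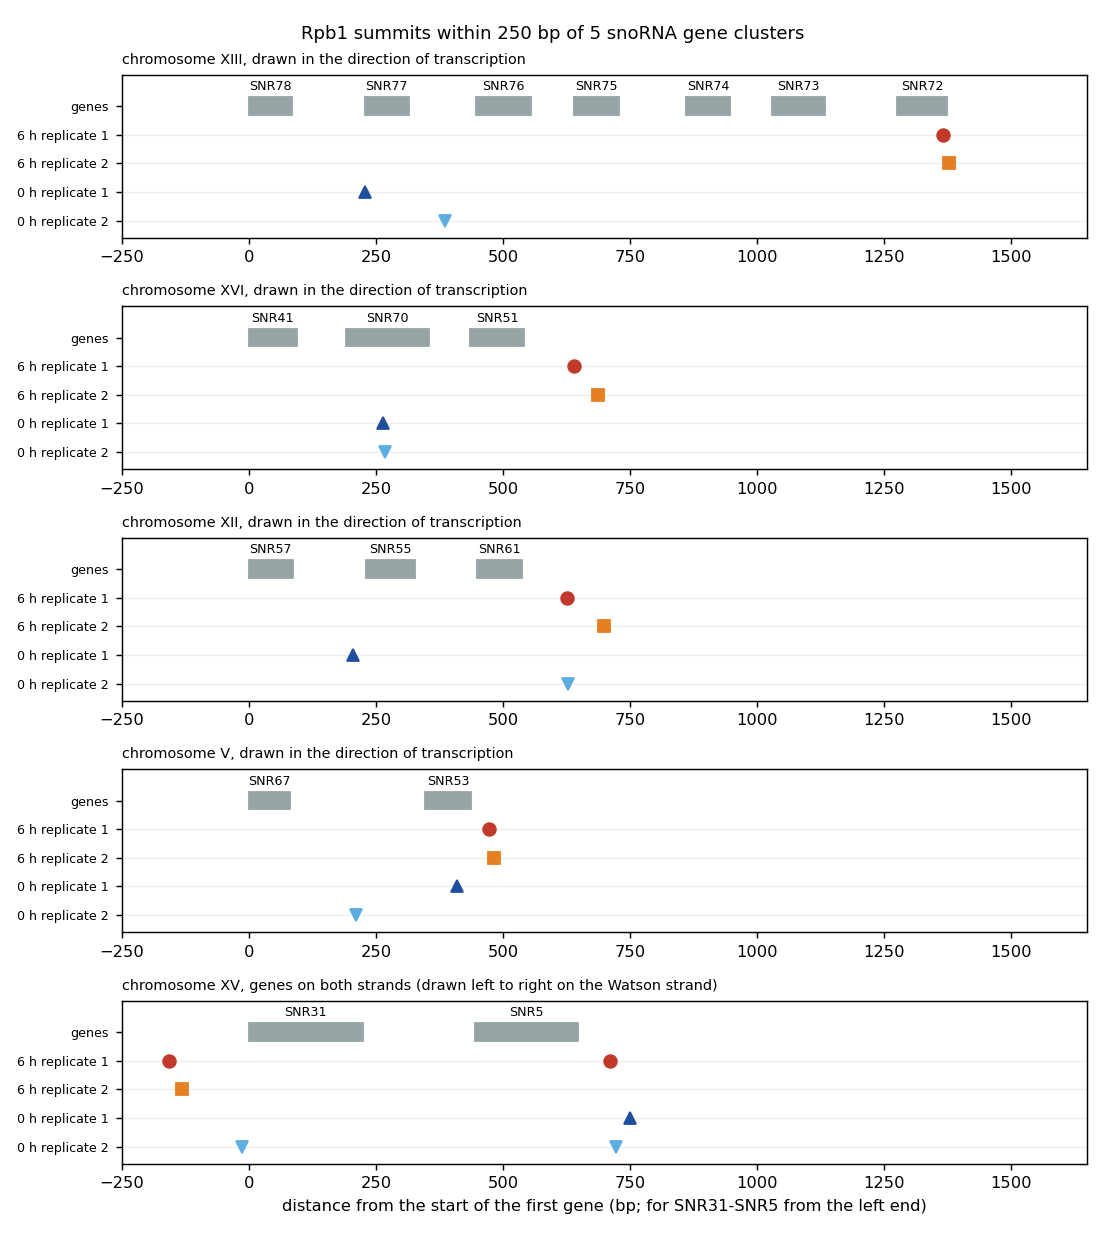
Rpb1 summits within 250 bp of the 5 snoRNA gene clusters in each library, in bp from the start of the first gene, with grey boxes for the snoRNA genes. In the top panel the 6 h summits lie at 1365 and 1378 bp and the 0 h summits at 228 and 387 bp. In the first 4 panels, the 6 h summits lie near or past the end of the last gene.

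SNR31 and SNR5, both of box H/ACA, lie back to back on chromosome XV and point away from each other. SNR31 had a summit 156 and 131 bp past its end at 6 h and 13 bp past it in 0 h replicate 2, and 0 h replicate 1 had none within 250 bp. SNR5 had a summit 63 bp past its end in 6 h replicate 1, and 102 and 75 bp past it at 0 h, and 6 h replicate 2 had none within 250 bp. The presence of these summits differed within each time point, so no order of the groups can be read at this pair.

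Of the 7 genes that overlap a protein-coding gene, 6 lie wholly inside a host. There a summit cannot be assigned to the snoRNA rather than to the messenger RNA. SNR24 lies in ASC1, which encodes a protein of the small ribosomal subunit. Summits lay 1016 and 1256 bp from the ASC1 start codon at 6 h, against 741 and 523 bp at 0 h, so those at 6 h were 312 and 552 bp past SNR24, and those at 0 h within 93 bp of it. SNR59 lies in RPL7B, a gene for a large-subunit ribosomal protein. There the summits lay 515 and 393 bp from the start at 6 h and 285 and 345 bp at 0 h, all before SNR59. SNR44 lies in RPS22B, for a small-subunit protein, with summits at 910 and 88 bp at 6 h and 7 and -132 bp at 0 h. In these 3 hosts the time points did not overlap and the 6 h summits were further downstream, though the 6 h replicates at RPS22B were 822 bp apart.

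The other 3 hosts differed from one another. TEF4, which encodes a translation elongation factor and holds SNR38, had summits 497 and 509 bp past its start at 6 h, against 515 and 341 bp at 0 h, and the groups overlap. IMD4, an enzyme gene of guanine nucleotide synthesis that holds SNR54, had summits 2120 and 2137 bp past its start at 6 h, against 2147 and 364 bp at 0 h. Only the summit of 0 h replicate 2 lay near SNR54, 192 bp before it. NOG2, which encodes a GTPase of large-subunit assembly and holds SNR191 (box H/ACA), had none within 250 bp at 6 h in either replicate, and had summits at 1751 and 925 bp at 0 h, with scores of 14.0 and 16.2. It is the 1 host called lost, both inside the gene and with 250 bp added. The nearest 6 h summits to SNR191 lay 1278 and 1302 bp past its end.

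**Figure D4:**
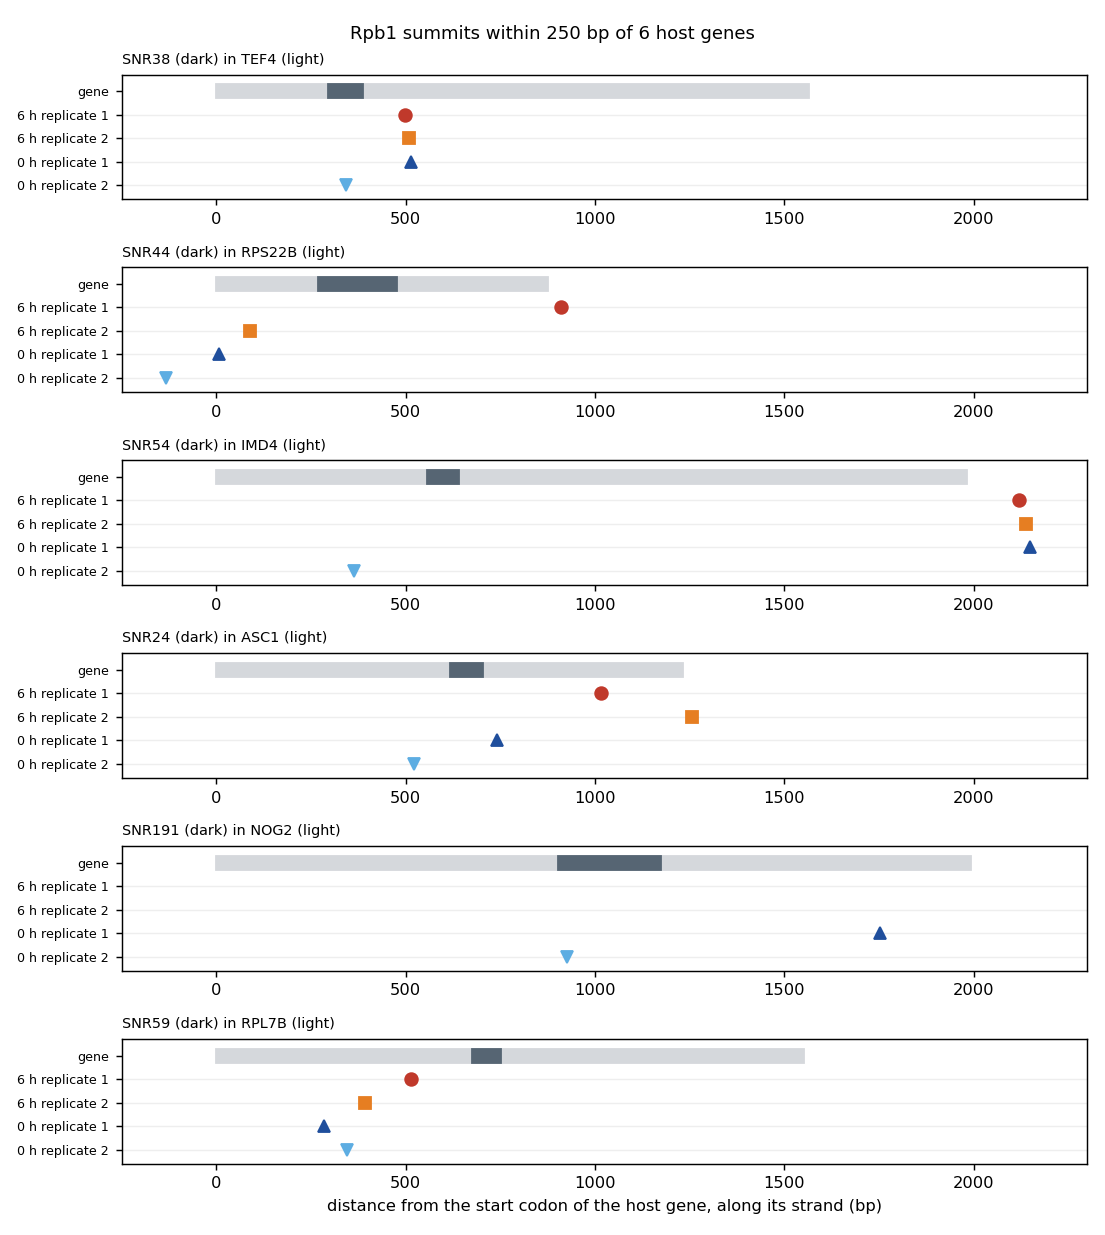
Rpb1 summits within 250 bp of the 6 host genes in each library, in bp from the host's start codon along its strand, with light bars for the host and dark bars for the snoRNA gene. At ASC1 the 6 h summits lie at 1016 and 1256 bp and the 0 h summits at 741 and 523 bp, and NOG2 has summits at 0 h only.

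The median position difference was smaller at genes beside a protein-coding gene than at genes alone, and largest at genes overlapping one. Counting every kind, 19 snoRNA genes had a protein-coding gene within 250 bp, 27 stood further from one, and 7 overlapped one. All 4 libraries had a summit within 250 bp at 12 of the 19 beside a gene (63.2%), at 13 of the 27 alone (48.1%) and at 2 of the 7 overlapping one (28.6%). With the boundary set at 500 bp, only 3 of 11 genes alone had one (27.3%). Of the 5 lost genes, 4 were alone and 1 lay in its host. The median difference in position was 0.5 bp over the 18 genes beside a gene and followed in all 4 libraries. It was 167.5 bp over the 23 alone, of which 11 were in clusters, and 289.5 bp over the 5 overlapping a gene. Surroundings and clustering thus overlap in these counts and were not separated by a test.

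Ribosomal protein genes, which are among the most transcribed genes of growing yeast, lie within 1000 bp of 13 of the snoRNA genes. Among those 13, 0 were lost and 0 gained, and 6 had a summit within 250 bp in all 4 libraries, against 3.06%, 4.31% and 9.88% of protein-coding genes. With 13 genes, the counts of 0 are near those shares. Of the other 40, 5 were lost, 2 gained, and 21 had a summit in all 4. At SNR4, a gene whose RNA guides acetylation of ribosomal RNA, the ribosomal protein gene RPS26B lies upstream on the same strand, and each library had 1 summit for the pair. It lay 157 and 156 bp past the end of RPS26B at 6 h, before SNR4. At 0 h it lay 609 and 582 bp past it, which is 37 and 10 bp past the end of SNR4. The difference of the means was -439 bp, opposite in direction to the clusters, with replicates within 27 bp of each other.

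Other snoRNA genes downstream of a ribosomal protein gene had less stable summits. Past the end of RPS29A, upstream of SNR34 (box H/ACA), the summit lay at 72 and 72 bp at 6 h and at 598 and 47 bp at 0 h. Past RPL36A, upstream of SNR11 (box H/ACA), it lay at 671 and 87 bp at 6 h and at 640 and 488 bp at 0 h. Past RPL12A, upstream of SNR80 (box H/ACA), it lay at 589 and 641 bp at 6 h and at 639 and 164 bp at 0 h. At each of these 3 pairs 1 library stood apart from the other 3, and the time points overlapped. Which gene of a pair a summit belongs to was not tested.

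Over all kinds, 46 of the 53 genes had a summit within 1000 bp in all 4 libraries. The difference between the mean 6 h and the mean 0 h position had a median of 64.3 bp downstream, with quartiles of -1.88 and 246.5 bp, and was positive at 34 genes and negative at 12. Without 0 h replicate 1 the median was 42 bp, and without 6 h replicate 2 it was 107 bp. Replicates differed by a median of 48 bp at 6 h and 65 bp at 0 h without regard to sign, and by -10 and -5.5 bp with it. The 6 h summits were both downstream of the 0 h summits at 21 genes (45.7%, against 39.4% of protein-coding genes), and upstream at 4 (8.70%, against 16.1%). SNR31 is 1 of the 21 and SNR5 is 1 of the 4, each with the value of 1 library taken from the summit at the other gene, and both are among the clustered genes counted here. The median was thus close to the 76 bp of protein-coding genes for this mix of kinds. By kind, the median was 398 bp over 14 clustered genes, which share summits, 289.5 bp over 5 genes overlapping a protein-coding gene, and 5 bp over the 27 single genes. With each cluster counted once it was 39 bp. With the nearest summit required within 250 bp it was 11 bp over 27 genes, against 121 bp over 339 protein-coding genes. In those 27, the 6 h summits were both downstream at 8 (29.6%, against 42.5% of protein-coding genes) and both upstream at 3 (11.1%, against 8.55%).

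The box C/D and box H/ACA classes differ in their surroundings. Of 34 box C/D genes, 20 and 18 had a summit within 250 bp at 6 h, and 26 and 24 at 0 h. Of 19 box H/ACA genes, 15 and 14 had one at 6 h, and 15 and 17 at 0 h. The 5 lost and 2 gained genes were all of box C/D, as were 15 of the 17 clustered genes, while 15 of the 19 box H/ACA genes stood singly. Class and clustering cannot be told apart in these counts.

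Of a list of 26 genes for proteins that bind, assemble or process snoRNAs, 15 lie on these chromosomes. By the 250 bp rule 0 were lost, against 3.06% of protein-coding genes, and 1 was gained (6.67%, against 4.31%), so the counts are near the background. In all 4 libraries 4 had a summit, against 9.88% of protein-coding genes, while 5 had none and 5 were mixed. By the inside-gene rule 1 was lost, NOP56, against 3.12% of protein-coding genes, and 0 were gained, against 2.19%. The 4 were SNU13 and NOP56, which encode core proteins of box C/D particles, CBF5, for the pseudouridine synthase of box H/ACA particles, and NRD1, for the termination factor. At NRD1 summits lay 191 and 271 bp past the start codon at 6 h, against 223 and 223 bp at 0 h, so the groups overlap. The gained gene was NAF1, for an assembly factor of box H/ACA particles. Its 6 h summits had scores of 5.93 and 6.48 and lay past the end of the gene, 1597 and 1548 bp from its start.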

How the data were processed

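Rpb1 chromatin immunoprecipitation libraries (2 at 6 h, 2 at 0 h) were deposited as 1 list of peak summits each. The deposited score is on a −log10 scale of the peak's p-value (or q-value, since the files do not say). The submitters' processing notes list MACS2 2.2.7.1, SAMtools 1.10, Bowtie2 2.2.4 and fastp 0.20.1. Build, peak threshold and whether inputs served as control were not given in the sources used here. Read depth is unknown, so no interval could be given, and a missing summit may be a peak under the threshold.

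Genes came from RefSeq R64, with strand read from the locus tag. Coordinates were not converted. For each library and gene, the nearest summit inside the gene or within 250 bp (main), 500 bp or 1000 bp was found. Lost, gained and position differences were defined as in the results. Shares were compared with a two-sided exact permutation test over the libraries. Counting was tested on simulated data. Named genes were those lost or gained, the 6 with the best mean score rank among genes with summits in all 4 libraries, SNR17A, SNR17B, SNR30, SNR52, each snoRNA in a same-strand protein-coding gene with its host, and snoRNA-protein genes lost or gained. Other genes named (such as SNR81, SNR50, SNR8, SNR66, SNR31, SNR5 and the neighbours of ribosomal protein genes) were chosen after their values were seen. The members and gene lists were chosen with earlier results of these data known. Alternatives were the window, a score filter, leaving out each library, the replicate block, landmark shifts, 1 unit per cluster and the boundary between beside and alone. Added after seeing the data were leaving out summits inside protein-coding genes, leaving out neighbours of ribosomal protein genes, and the best-scoring summit in place of the nearest. The split into clustered, overlapping and single genes was also set after the lost and gained genes were known. Same-numbered libraries were not paired, with a correlation of 0.0326 in their deviations over 3432 protein-coding genes.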

Additional observations from a re-analysis of the deposited data

How the results depend on the processing

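There were 72 alternative values. The difference in share and the median position difference kept their sign throughout, while counts and percentages of genes cannot change sign. In the order of the difference in share (main -14.2 points), genes lost (5), gained (2), lost with a summit elsewhere (4) and median position difference (64.3 bp), the values that moved were these. Counting summits inside the gene only gave -5.66 points, 2 lost, 0 gained and 2 elsewhere. A window of 500 bp gave -9.43 points, and 1000 bp gave -6.60 points, 3 lost and 0 gained. At 1000 bp the count elsewhere is 0 by definition, since that search also reached 1000 bp. Searching for a summit elsewhere within 500 bp left 1 gene. Counting 1 unit per cluster gave -8.54 points, 1 lost, 0 gained, 1 elsewhere and 39 bp. Moving positions by the best landmark shift gave 1 gained and 75 bp. The median was also 43 bp and 11 bp with the nearest summit required within 500 bp and 250 bp, 124.25 bp on chromosomes passing without snoRNA landmarks, and 92.75 bp with the better-scoring 50% of summits. It was 48 bp without summits in protein-coding genes, 48 bp without neighbours of ribosomal protein genes, and 92.75 bp with the best-scoring summit. Leaving out 1 library gave -17.0 to -11.3 points, 6 to 9 lost, 2 to 3 gained, 5 to 7 elsewhere and 42 to 107 bp. With a replicate block, as the mean over same-numbered pairs, 11 were lost, 3.5 gained and 8 elsewhere, since fewer libraries must meet the rule. The block left the share at -14.2 points. Genes alone with a summit in all 4 libraries were 48.1% with the boundary at 250 bp and 27.3% with it at 500 bp. For the other moved values, the cause was not tested. With 2 libraries against 2, no exact permutation p can fall below 0.33, and the lists hold no occupancy level.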
